A study of Mus musculus with 2 samples.

Results

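Mitosis and G2/M genes encode the machinery with which a cell enters mitosis, builds a spindle, separates its chromosomes and divides. The set described here holds 49 such genes, a list of names that no measured value defines, though it was drawn up with earlier results of these data known. Every probe set was read that the platform annotation gives to 1 of these genes alone. Of the 49 genes, 48 had such a probe set, 118 in all, out of 18193 genes with a probe set on the array. Of the 48, 44 were measured, which means that a probe set reached the floor of its array in at least 1 of the arrays, as did 10376 genes of the array. The floor was the 60th percentile of an array's signals, or 64.2 for the control and 67.5 for Hand2-null. The genes Ccnf, Cdc25c, Spag5 and Foxm1 stayed under it in both arrays, and Ccnb1 had no probe set named to it alone in the annotation used here.

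The samples were uterine stromal cells of mice on day 4 of pregnancy, on 1 Affymetrix array for each genotype. The control mice carried the floxed Hand2 allele, and in the Hand2-null mice this allele was deleted with PRcre, a Cre recombinase made from the progesterone receptor locus and therefore not limited to stromal cells. The labels list Prcre and a mixed C57BL/6 and SV129 background for both arrays. The cells had been dispersed with enzymes and left to attach to plates, and RNA of the mice of a genotype was pooled, from 5 mice by the series design and 4 by the extraction protocol. There was thus no replicate, no test and no error for a difference between genotypes, and every value compares these 2 pools. The only measure of precision came from genes with several probe sets above both floors, whose log2 ratios had an SD of 0.19 within a gene (3665 genes), or 0.15 for the 14 such mitosis and G2/M genes. It leaves out the variation between mice. Throughout, a log2 ratio is Hand2-null minus control, and the brightest probe set stands for its gene unless another is named.

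As background, cyclin B bound to the kinase CDK1 starts mitosis, the polo and Aurora kinases build the spindle, the spindle checkpoint holds back the anaphase-promoting complex (APC/C) until every chromosome is attached, and the APC/C then destroys cyclin B and securin. Messenger RNAs of these proteins are scarce in resting cells and accumulate from S phase to mitosis, so that they are widely used as markers of dividing cells. In the mouse uterus before implantation, progesterone shifts cell division from the epithelium to the stroma.

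Mitosis and G2/M genes were lower in the Hand2-null array, each by a small amount. Of the 44 measured genes 40 had a log2 ratio under 0 and 4 above it, against 55.3% under 0 among all measured genes. Of the 44, 13 were within 0.19 of 0, the SD between probe sets of a gene. Nek2, Ttk and Kif4 reached the floor in the control array alone, which nearly fixes their sign. In a count added after seeing the data, 37 of the 41 genes above both floors were lower, or 90.2%. Among all genes above both floors 55.9% were lower. The median log2 ratio of the 44 genes was -0.28, or 1.22-fold lower, and the middle of the set lay between -0.39 and -0.11 (25th and 75th percentiles), against a median of -0.03 over all measured genes. The lowest 25% of all measured genes, at a log2 ratio of -0.20 or less, held 29 of the 44, or 65.9%. At least 1.25-fold lower were 19 of the 44, or 43.2%, against 13.8% of all measured genes. Larger differences were as rare as elsewhere on the array. At least 1.5-fold lower were 2 of the 44, Ube2c and Nek2, against 3.32% of all measured genes, and 0 were at least 2-fold lower, against 0.742%. No gene of the set was at least 1.5-fold or 2-fold higher, against 6.21% and 1.99% of all measured genes. All but those 2 genes lay within the middle 95% of all measured genes, from -0.66 to 0.93. The difference thus lies in many small shifts to the same side and not in single large ratios. In such bulk RNA, fewer dividing cells and less RNA per dividing cell cannot be told apart.

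**Figure D1:**
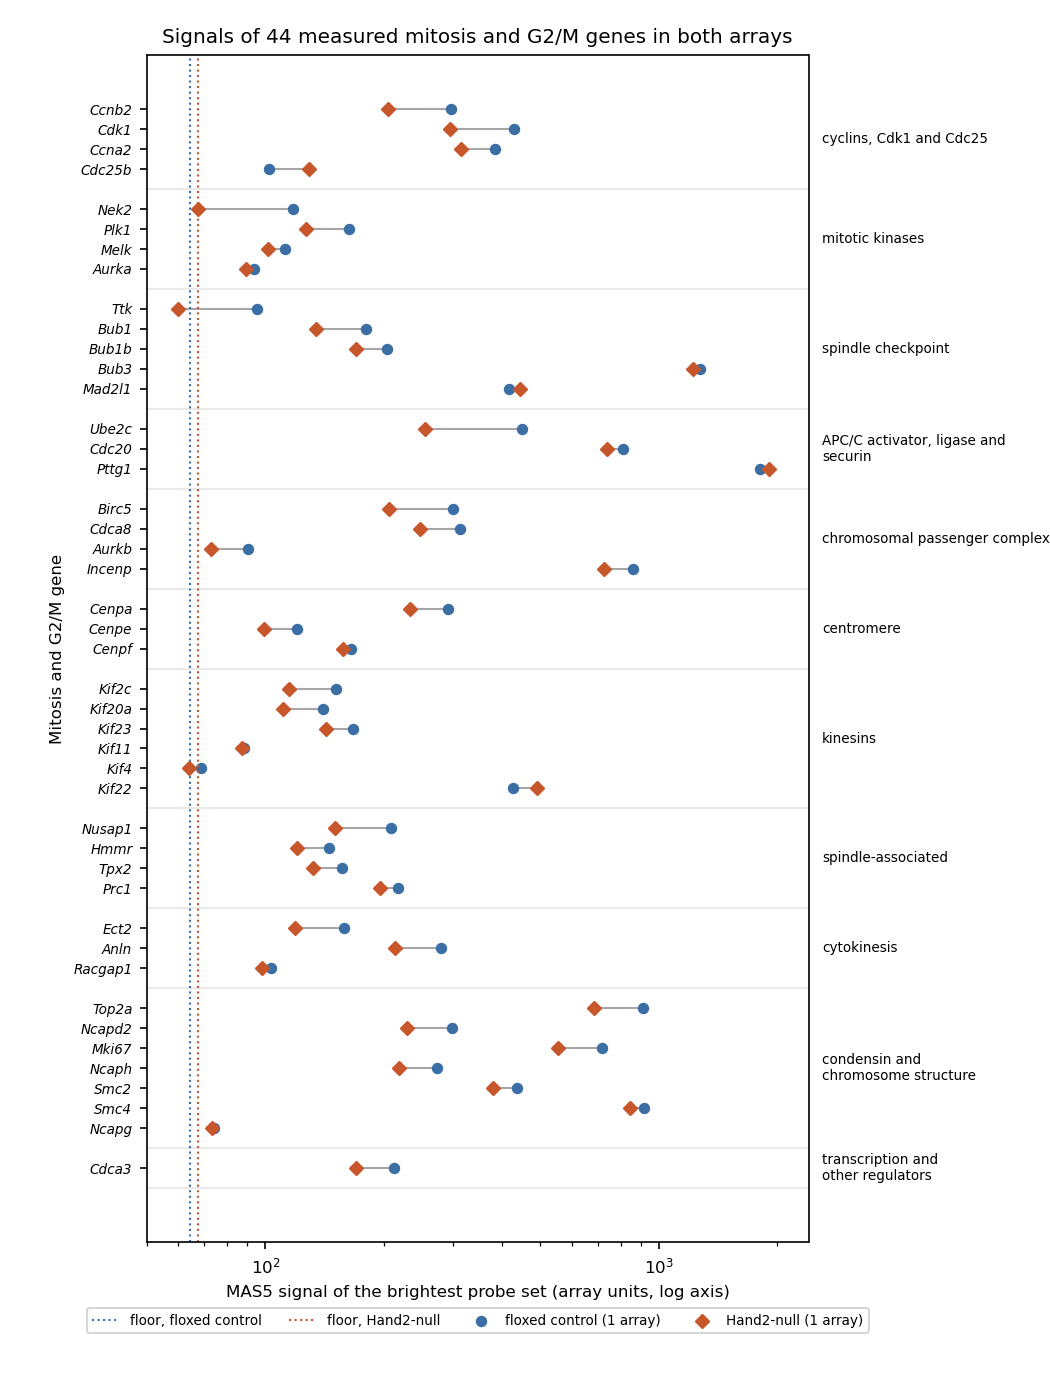
MAS5 signal of the brightest probe set in the floxed control array (circles) and the Hand2-null array (diamonds) for the 44 measured mitosis and G2/M genes, grouped by role, on a log axis with 1 array per genotype. The diamond lies left of the circle for 40 genes and right of it for Cdc25b, Mad2l1, Pttg1 and Kif22, and the dotted lines are the floors of 64.2 and 67.5.

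The 12 genes with the largest ratios in size were all lower: Ube2c, Nek2, Ccnb2, Cdk1, Birc5, Ttk, Nusap1, Bub1, Top2a, Ect2, Kif2c and Anln, from -0.82 to -0.39. They range from the kinase that starts mitosis to proteins that pinch the cells apart, and none is of the centromere group. The promoters of 5 of them are shown because genes of G2 and mitosis are known to share 2 short elements there. The cell cycle genes homology region (CHR) is bound by the DREAM complex in resting cells and by MuvB with B-MYB and FOXM1 in dividing ones, and CCAAT boxes are bound by NF-Y. The windows run from 250 bases before to 50 bases after the gene start (RefSeq, GRCm38.p6), 5′ to 3′ on the gene's strand, with capitals for the CHR words TTTGAA and TTTAAA and for CCAAT, each on either strand. Shown are the 5 lowest genes by ratio that have a window with a CHR word.
Ube2c (chr2:164769679-164769978, plus strand): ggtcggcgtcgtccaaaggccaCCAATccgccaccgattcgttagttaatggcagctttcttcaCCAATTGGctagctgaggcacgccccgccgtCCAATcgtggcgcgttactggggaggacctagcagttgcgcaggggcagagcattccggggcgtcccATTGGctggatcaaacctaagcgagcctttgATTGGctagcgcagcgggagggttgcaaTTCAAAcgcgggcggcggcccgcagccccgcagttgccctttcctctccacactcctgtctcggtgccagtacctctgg
Ccnb2 (chr9:70421505-70421804, minus strand): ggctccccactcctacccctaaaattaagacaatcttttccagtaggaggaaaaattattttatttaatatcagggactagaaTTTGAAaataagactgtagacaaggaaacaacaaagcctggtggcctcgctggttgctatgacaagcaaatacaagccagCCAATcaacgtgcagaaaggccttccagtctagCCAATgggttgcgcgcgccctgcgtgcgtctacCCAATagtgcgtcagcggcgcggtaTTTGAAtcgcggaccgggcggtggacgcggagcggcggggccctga
Cdk1 (chr10:69352863-69353162, minus strand): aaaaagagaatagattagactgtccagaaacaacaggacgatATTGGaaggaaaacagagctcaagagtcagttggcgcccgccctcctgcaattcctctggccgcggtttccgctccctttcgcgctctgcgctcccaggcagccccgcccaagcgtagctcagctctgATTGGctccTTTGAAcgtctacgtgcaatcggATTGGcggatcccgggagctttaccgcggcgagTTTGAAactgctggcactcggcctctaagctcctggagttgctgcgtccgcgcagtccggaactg
Birc5 (chr11:117848987-117849286, plus strand): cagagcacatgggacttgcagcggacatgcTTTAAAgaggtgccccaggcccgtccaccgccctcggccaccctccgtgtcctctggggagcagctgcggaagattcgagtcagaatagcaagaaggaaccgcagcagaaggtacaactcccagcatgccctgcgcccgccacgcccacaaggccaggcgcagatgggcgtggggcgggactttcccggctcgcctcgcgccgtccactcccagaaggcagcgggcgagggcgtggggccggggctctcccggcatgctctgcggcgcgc
Ttk (chr9:83834439-83834738, plus strand): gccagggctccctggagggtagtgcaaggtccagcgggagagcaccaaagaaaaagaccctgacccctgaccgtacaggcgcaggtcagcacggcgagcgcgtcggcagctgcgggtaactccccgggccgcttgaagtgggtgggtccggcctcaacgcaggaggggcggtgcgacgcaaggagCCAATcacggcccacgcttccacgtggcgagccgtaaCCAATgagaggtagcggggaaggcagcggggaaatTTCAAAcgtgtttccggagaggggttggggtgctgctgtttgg

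In these windows Ube2c held 6 CCAAT words, a pair of them overlapping on opposite strands, and 1 CHR word, centred 27 bases before the start. Ccnb2 and Cdk1 each held 3 CCAAT words and 2 CHR words, the nearer CHR word lying 6 bases after the start in Ccnb2 and 13 bases before it in Cdk1. Ttk held 2 CCAAT words and a CHR word 9 bases after the start, whereas Birc5 held no CCAAT word and 1 CHR word of the TTTAAA form, 218 bases before the start. Windows were at hand for 41 of the 49 genes, 44 windows in all, since Ect2, Prc1 and Bub3 each had 2 that overlap. Aurkb, Ccna2, Cdc25c, Foxm1, Incenp, Kif20a, Smc4 and Tpx2 had none in the table used. A CHR word stood in 36 of the 44 windows, or 81.8%, against 27.6% of all 32851 windows of this length and 19.4% of those of measured genes. With TTTGAA alone the shares were 75%, 17.9% and 11.8%. CCAAT words stood in 81.8% of the windows against 37.4% of all and 36.6% of those of measured genes, and CHR and CCAAT together in 75% against 10.7% and 7.16%. Of the CHR words in the set 73.1% were centred between 100 bases before and 50 bases after the start, against 41.5% of the CHR words in all windows.

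The words used for E2F sites, TTCCCGC as well as TTCGCGC, besides TTGCCGC as well as TTGGCGC, each on either strand, were counted too. E2F factors are best known for genes of the entry into S phase. These words, which can overlap one another, stood in 20.5% of the windows of mitosis and G2/M genes, in 9.57% of all windows and in 16.4% of those of measured genes, in 31.5% of the 73 windows of other mitosis genes and in 56.5% of the 69 windows of G1/S and DNA replication genes. Those 69 windows held a CHR word in 24.6% and a CCAAT word in 55.1%, and the 73 windows of other mitosis genes in 50.7% and 60.3%. Within the set, the 30 measured genes with a CHR word had a median log2 ratio of -0.30 and 29 of them were lower, and the 8 measured genes without one had a median of -0.23 with 5 lower. Those 8 were Bub1, Cdc25b, Mad2l1, Melk, Ncaph, Nek2, Nusap1 and Pttg1, and they include the second lowest ratio of the set as well as 3 of its 4 ratios above 0. A matching word describes the sequence and does not show that a factor binds.

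**Figure D2:**
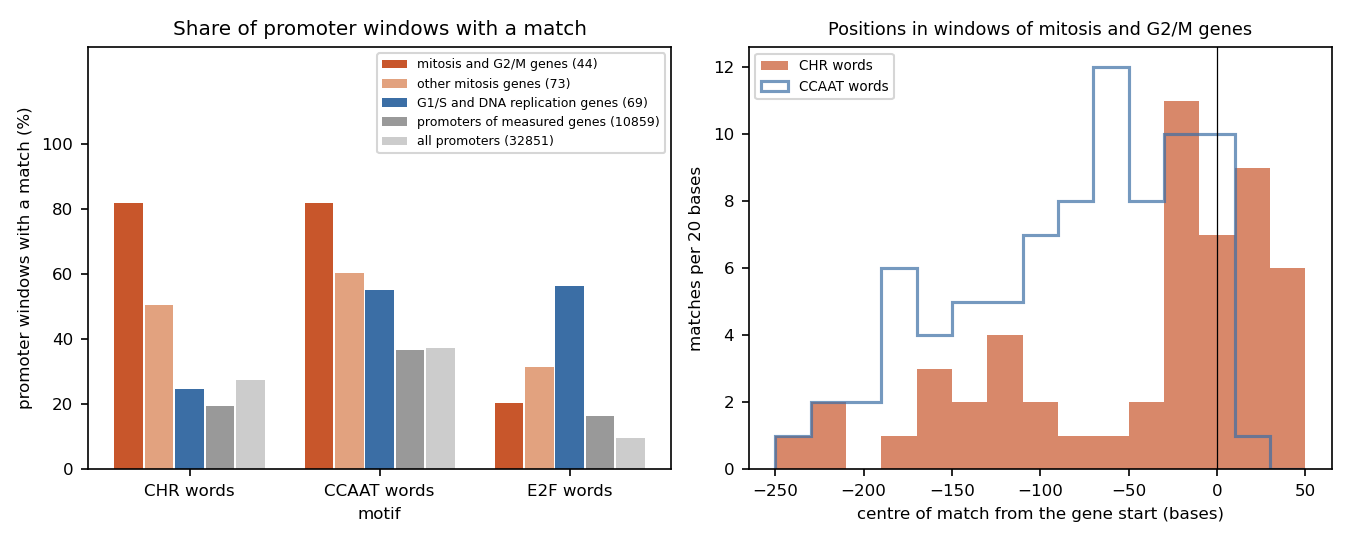
Left, the share of 300-base promoter windows with a CHR, CCAAT or E2F word, in percent, for the mitosis and G2/M genes, 2 other gene lists, measured genes and all windows, with the number of windows in brackets. Right, the number of CHR and CCAAT matches per 20 bases in the 44 windows of mitosis and G2/M genes against the distance from the gene start. CHR words reach 81.8% in the set against 27.6% of all windows and lie mostly near the start, while E2F words reach 56.5% in the G1/S and DNA replication genes.

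Among the cyclins, CDK1 and the CDC25 phosphatases, 3 of 4 measured genes were lower. Cdk1, the kinase that drives entry into mitosis, had a signal of 427 in the control and 295 in the Hand2-null array, a log2 ratio of -0.53 or 1.45-fold lower. Its partner Ccnb2, a B-type cyclin, had signals of 297 and 205, a ratio of -0.54 or 1.45-fold lower. Ccna2, cyclin A2 of S phase and G2, had 383 and 315, a ratio of -0.28, and its second probe set gave -0.25. Cdc25b, a phosphatase that activates CDK1, went the other way at 102 and 129, a ratio of 0.33 and the highest of the set, on 1 measured probe set. Ccnf, an F-box protein of the cyclin family, had signals of 53.7 and 39.5, and Cdc25c, another phosphatase of CDK1, 41.4 and 18.6 by 1 probe set and 30.2 and 29.6 by the other, all under the floor.

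All 4 measured mitotic kinases listed as such were lower, by unequal amounts. Nek2, which parts the centrosomes, had signals of 118 and 67.2, the second just under the floor, which makes it 1.75-fold lower or more. A further 3 probe sets stayed under both floors, with 47.4 and 35.7, 14.7 and 8.69, and 8.06 and 8.02. Plk1, the polo-like kinase of spindle assembly and mitotic entry, had 163 and 127, a ratio of -0.36. Melk, a kinase with a mitotic peak, and Aurka, Aurora A of the spindle poles, differed less, at 112 and 101 or -0.14 and at 93.6 and 89.3 or -0.07, both within the spread of 0.19 between probe sets of a gene.

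Of the 5 genes of the spindle checkpoint, 4 were lower. Ttk, the kinase MPS1 that starts the checkpoint signal, had signals of 95.4 and 60.1, the second under the floor, which makes it at least 1.41-fold lower. Bub1 had 180 and 134, a ratio of -0.42. Its relative Bub1b, or BUBR1, had 204 and 170 by the brightest probe set, a ratio of -0.27, and 167 and 121 by another, a ratio of -0.47. Each of these 3 genes was lower at its brightest probe set by more than the spread between probe sets of a gene. Bub3, which holds BUB1 and BUBR1 at the kinetochore, had 1268 and 1219, a ratio of -0.06, with -0.26 at a dimmer probe set, and Mad2l1, the protein MAD2 that blocks the APC/C activator, was higher at 415 and 444, a ratio of 0.10.

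The APC/C group held both the lowest gene and one of the higher ones. Ube2c, the ubiquitin-conjugating enzyme that works with the APC/C, had signals of 449 and 255 on its single probe set, or 1.76-fold lower. Cdc20, the activator of the APC/C at anaphase, had 811 and 739, a ratio of -0.13, and -0.33 at its second probe set. Pttg1, securin, which guards the sister chromatids until the APC/C destroys it, was higher at all 3 measured probe sets, at 1809 and 1906, 277 and 293, and 46.1 and 72.2. The first 2 ratios, 0.07 and 0.08, are within the spread between probe sets, and the last is 0.17 or more, since its control signal is under the floor.

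The 4 genes of the chromosomal passenger complex, which corrects faulty attachments and then guides cytokinesis, were all lower and all in the lowest 25% of the array. Birc5, survivin, had signals of 299 and 207, a ratio of -0.53. Aurkb, the Aurora B kinase of the complex, had 90.3 and 72.7 or -0.31, and its second probe set had 96.4 and 52.7, the latter below the floor, for a ratio of no more than -0.51. Cdca8, borealin, had 312 and 247, and its 3 measured probe sets lay close together, between -0.33 and -0.26. Incenp, the scaffold, had 857 and 727, a ratio of -0.24, with -0.38 at the dimmer probe set.

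The 3 centromere genes were lower as well. Cenpa, the histone H3 variant that marks centromeres, had signals of 290 and 232, a ratio of -0.32, with -0.02 or lower at a probe set whose second signal is under the floor. Cenpe, a kinetochore motor, had 120 and 99.0, a ratio of -0.28, with -0.44 at a dimmer probe set. Cenpf, a kinetochore protein, had 165 and 157, a ratio of -0.07. The difference for Cenpf is within the spread between probe sets of a gene, and those for Cenpa and Cenpe are beyond it at the brightest probe set.

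Of 6 kinesin genes, the motors that shape the spindle, 5 were lower. Kif2c, which shortens microtubules at the kinetochore, had signals of 151 and 115, a ratio of -0.40, and Kif20a and Kif23, motors of the central spindle and cytokinesis, had -0.33 and -0.23. Kif11, which pushes the spindle poles apart, had 88.2 and 87.0, a ratio of -0.02. The chromosome-bound Kif4 had 68.4 and 64.0, the second under the floor, so that its ratio of -0.02 is only an upper bound. Kif22, another chromosome-bound motor, gave opposite signs: 427 and 489 or 0.20 by the brightest probe set, and 133 and 105 or -0.34 by another. The third was under both floors at 55.1 and 49.9. The direction of Kif22 is therefore not settled, and its mean over both measured probe sets was -0.07.

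All 4 measured genes of spindle-associated proteins were lower. Nusap1, a microtubule bundler, had signals of 209 and 150, a ratio of -0.48. Hmmr, Tpx2 and Prc1, of spindle assembly and the central spindle, had ratios of -0.27, -0.25 and -0.15. A second probe set of Hmmr gave -0.03 or lower, with its Hand2-null signal under the floor, and that of Prc1 gave -0.15. Spag5, astrin, was under the floor at all 3 probe sets, with signals of 56.1 and 58.5 at the brightest. The 3 genes of cytokinesis were lower at the brightest probe set. Anln, anillin of the contractile ring, had 279 and 213, a ratio of -0.39, and Ect2, which activates the GTPase RhoA at the division plane, 158 and 119, a ratio of -0.41. Racgap1, the partner of KIF23, had 103 and 97.8 or -0.08 at 1 probe set and 91.8 and 96.8 or 0.08 at another, which leaves it without a direction.

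Chromosome structure genes were lower in 7 of 7 cases. Top2a, the topoisomerase that untangles sister chromatids, had signals of 913 and 682, a ratio of -0.42, and a dimmer probe set had 72.2 and 49.8, or -0.10 and lower with the second signal under the floor. Mki67, the proliferation antigen Ki-67 that coats mitotic chromosomes, had 715 and 554, a ratio of -0.37. The 5 subunits of condensin I, the ring that compacts chromosomes, were all lower, at -0.39 for Ncapd2, -0.32 for Ncaph, -0.21 for Smc2, -0.12 for Smc4 and -0.01 for Ncapg. Smc2 had 2 further probe sets at -0.53 and -0.03, and Ncapg 1 at -0.44, with its Hand2-null signal under the floor. Further probe sets gave -0.16 for Ncaph and -0.15 and -0.01 for Smc4. The spread within Smc2 and within Ncapg is no narrower than that between the 5 condensin genes.

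Of the regulators, Cdca3, which promotes entry into mitosis, had signals of 213 and 170, a ratio of -0.33. Foxm1, the forkhead factor that activates many genes of the set, could not be read. Its 4 probe sets were under both floors, with 43.5 and 36.3, 46.0 and 17.8, 21.3 and 25.5, and 0.538 and 3.45.

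Read by probe set in place of gene, 60 of the 67 measured probe sets of the set were lower, or 89.6%, against 54.2% of all measured probe sets. Those of Nek2, Ttk and Kif4 and the dimmer ones of Cenpa, Aurkb, Ncapg, Top2a and Hmmr reached the floor in the control array alone. This nearly fixes their sign, as it does for the dimmest measured probe set of Pttg1, which reached it in the Hand2-null array alone. Among the 19 genes with several measured probe sets, all were lower in 16, all were higher in Pttg1, and signs were mixed in Kif22 and Racgap1. For Cenpa, Aurkb, Ncapg, Top2a and Hmmr the shared sign includes a probe set that reached the floor in the control array alone. Several probe sets above both floors were at hand for 14 genes. For 25 genes the direction rests on a single measured probe set. The other 51 probe sets were under the floor in both arrays, and no fold is read from them. Those of the 12 genes named above were at 54.1 or less, apart from the ones already given.

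**Figure D3:**
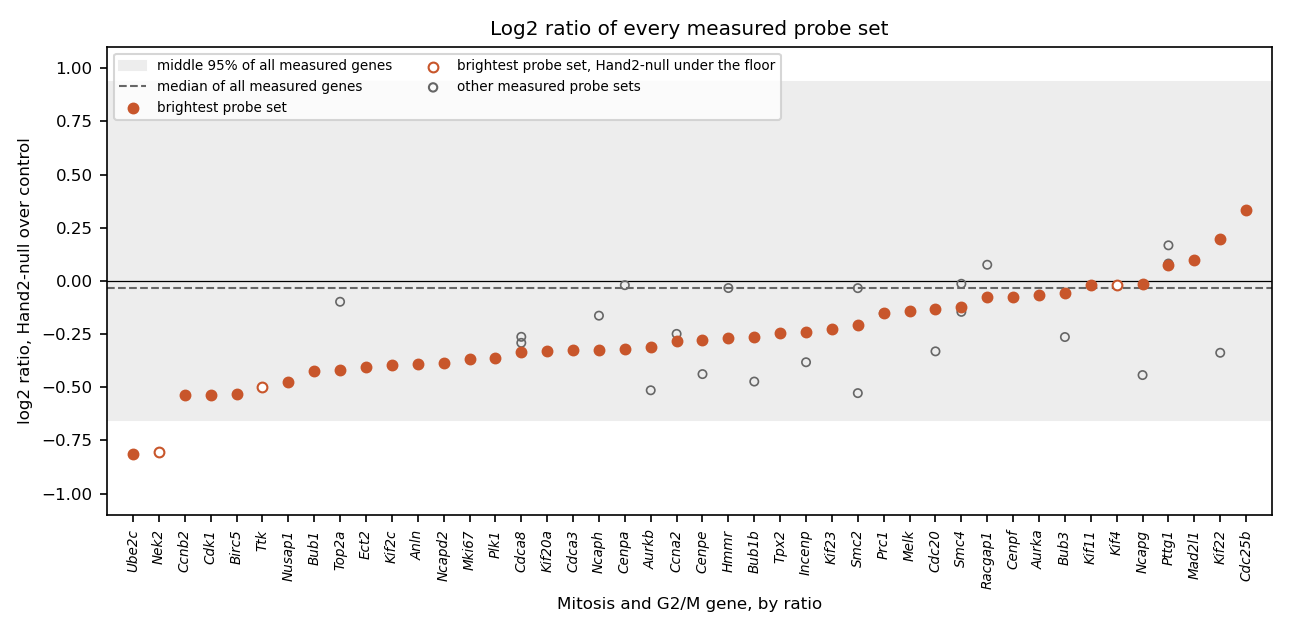
Log2 ratio of Hand2-null over control for every measured probe set of the 44 genes, ordered by the brightest probe set (filled points, or orange rings where the Hand2-null signal is under the floor), with grey rings for other measured probe sets. The grey band is the middle 95% of all measured genes, from -0.66 to 0.93, and the dashed line their median of -0.03. Ube2c at -0.82 and Nek2 at -0.80 lie apart from the next gene, Ccnb2 at -0.54, and Cdc25b at 0.33 is the highest.

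Other genes of cell division that are not in the set were read for comparison. Of 54 measured genes among 83 other mitosis genes, 42 were lower, or 77.8% against 55.3% of all measured genes. Their median log2 ratio was -0.17, and 38.9% lay in the lowest 25% of the array. Cep55 of the last step of cytokinesis had signals of 228 and 146, a ratio of -0.64, Zwilch of the kinetochore 159 and 105, a ratio of -0.59, and Spc24 and Cenpq, also of the kinetochore, -0.52 and -0.51. Kinetochore genes of that list were lower in 13 of 15 cases. Genes of cohesin and condensin were lower in 7 of 12, or 58.3%, near the share of the array, with a median of -0.01. Both subgroups were singled out among those of the list, and their difference was not tested. The 12 core subunits of the APC/C, which cells also need outside mitosis, had a median of -0.06. Of these 9 were lower, or 75%, with 8.33% of the subunits in the lowest 25% of the array. Ratios ran from -0.30 for Cdc27, whose second probe set gave 0.03, to 0.16 for Anapc5, beside Cdc26 at -0.19 and Anapc13 at -0.17.

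G1/S and DNA replication genes, which act before mitosis, had a median log2 ratio of -0.20. Of 62 measured, 45 were lower, or 72.6% against 55.3% of all measured genes. In the lowest 25% of the array lay 50% of them, against 65.9% of the mitosis and G2/M genes. No test of this difference between lists was possible. Gins1 of the replicative helicase, Orc3 of the origin recognition complex and Rfc4 of the clamp loader had ratios of -0.58, -0.56 and -0.53. An exception was Cdk6, a kinase of G1, at 147 and 336, or 2.28-fold higher, with its second probe set at 0.97.

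Of 12 measured genes for factors that control transcription of G2/M genes, 8 were lower, or 66.7% against 55.3% of all measured genes. Their median was -0.12, and 25% of them lay in the lowest 25% of the array, so that the list lay near the array. Rbl2, the pocket protein p130 of the DREAM complex, had -0.54 at the brightest probe set and 0.15 at the other, and Tfdp1, Rbbp4 and Tfdp2, which encode further DREAM subunits, had -0.31, -0.21 and -0.19. The 4 probe sets of Rbbp4 ran up to 0.11. Mybl2, or B-MYB, was under the floor at 29.7 and 34.1, as were E2f4, Lin9 and Lin52. In a list of inhibitors of cyclin-dependent kinases and genes of the p53 response, 10 of 13 were higher, with a median of 0.16. Lower were 23.1% of them, against 55.3% of all measured genes. Cdkn1a, the inhibitor p21, had signals of 253 and 527, or 2.08-fold higher, and 1.04 in log2 ratio at its second probe set. Gadd45g and Gadd45b, stress-induced inhibitors of growth, had 0.76 and 0.57, and Cdkn1b, the inhibitor p27, 0.43. The other measured kinase inhibitors were near 0 or lower, with Cdkn2c at 0.06, Cdkn2d at -0.07 and Cdkn1c at -0.29.

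**Figure D4:**
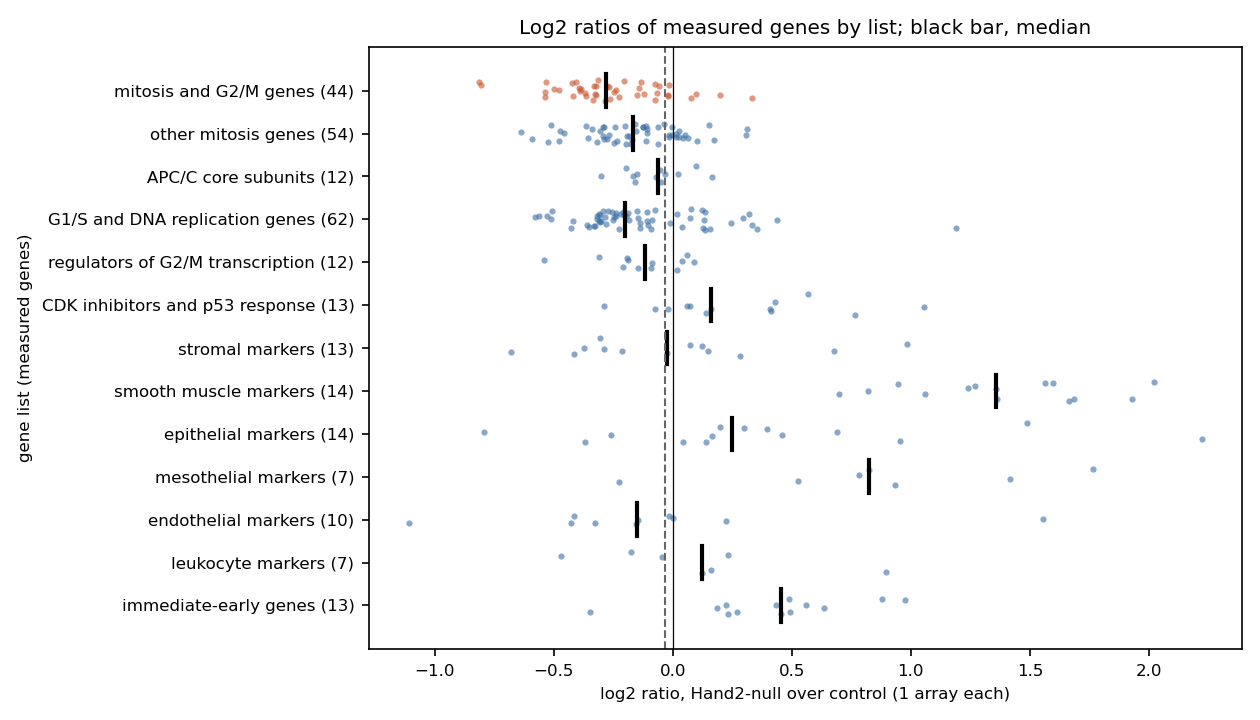
Log2 ratio of Hand2-null over control of each measured gene in 13 gene lists, with the number of measured genes in brackets, 1 point per gene spread at random in height within its list, a black bar at each median and a dashed line at the median of all measured genes, -0.03. The median of the mitosis and G2/M genes is -0.28, and that of the smooth muscle markers 1.36.

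Hand2 itself, which checks the labels, had a signal of 1545 in the control and 38.5 in the Hand2-null array, at least 22.9-fold lower, and the deleted exons are not given in the labels. Markers of other cell types also moved between the arrays, and their part in the lower mitotic signals was not tested. For scale, 55.3% of all measured genes were lower. All 14 smooth muscle markers lay above 0, at a median of 1.36 and with summed signals of 27397 and 61030, led by Cnn1 at 2.02, Oxtr at no less than 1.93, Myh11 at 1.68 and Lmod1 at 1.66. Of 7 measured mesothelial markers 6 lay above 0, the median being 0.82 and sums of 989 and 1548, with Gpm6a at 1.77, Upk3b at 1.42, and Msln and Bnc1 at no less than 0.93 and 0.82. Of 14 epithelial markers 11 were higher, with a median of 0.25 and sums of 9357 and 11370, with Lcn2, Ltf and Krt19 at 2.22, 1.49 and 0.96 against Foxa2 at -0.79. The 13 stromal markers were split, 7 lower and 6 higher, with a median of -0.03, or 0.15 by the mean over probe sets, and sums of 57833 and 62680, between Hoxa11 at -0.68 and Pdgfra at -0.42 and Lum and Col1a1 at 0.68 and 0.98. Endothelial markers, 7 of 10 lower, had a median of -0.15 and sums of 4237 and 3702, with Cdh5 at -1.11, Emcn at -0.43 and Esam at -0.42 against Cldn5 at 1.55. Leukocyte markers, 3 of 7 measured lower, had 0.12 and sums of 7232 and 7261, with Cd3g at 0.89, Gzma at -0.47, Adgre1 at 0.23 and Lyz2 at -0.18. The list of immediate-early genes, which answer many stimuli within minutes, also held the heat-shock genes Hspa1a and Hspa1b. Of its 13 genes 12 were higher. Their median was 0.45, with sums of 35859 and 45600, among them Fosb, Atf3, Junb and Dusp1 at 0.98, 0.88, 0.63 and 0.56.

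**Figure D5:**
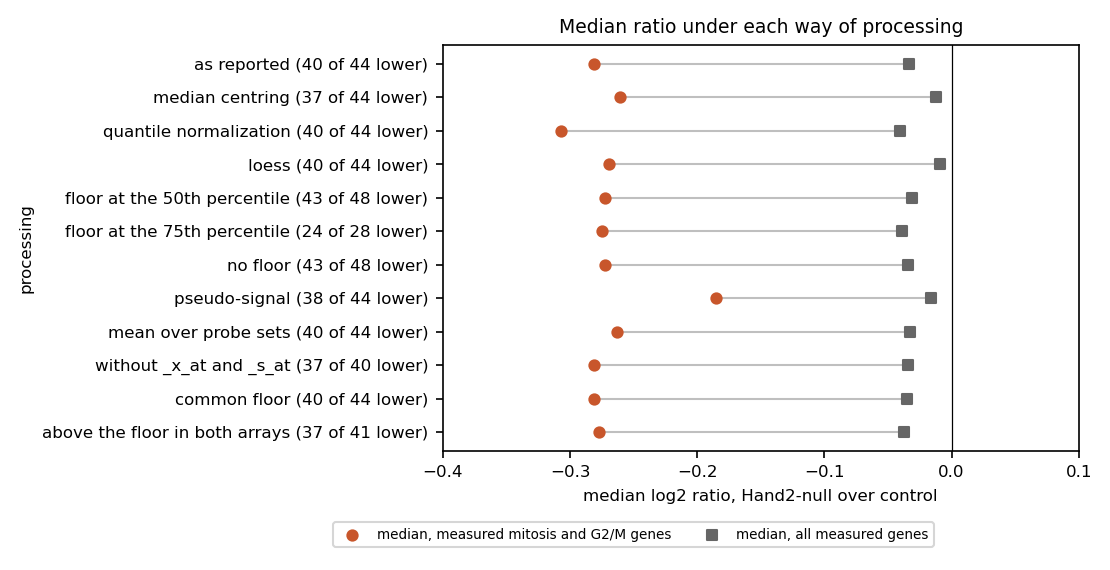
Median log2 ratio of the measured mitosis and G2/M genes (circles) and of all measured genes (squares) under the reported processing and 11 alternatives, with the number of genes lower of those measured. The circles lie between -0.31 and -0.18 and the squares between -0.04 and -0.01.

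Whichever way the signals were processed, the set lay below the array. Its median was -0.31 after quantile normalization and -0.18 with a pseudo-signal, the ends of the range, and the distance to the median of all measured genes ran from -0.27 to -0.17. The genes counted as lower were 37 of 44 after centring on the median, since Kif4, Kif11 and Ncapg lie so close to 0, and 24 of 28 once the floor was raised to the 75th percentile. In all, 35 of the 44 genes were lower under each setting in which they were measured, as Cdc25b, Mad2l1 and Pttg1 were higher under each in which they were measured.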

How the data were processed

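Signals of 2 arrays, 1 per genotype, each of pooled RNA, were used as the authors deposited them. The deposited values are linear array intensity that the authors computed before deposit with MAS5, per the submitters' processing notes, which also name Expression Console (Affymetrix), version 1. Without the top and bottom 2%, signals averaged 150.001 in each array, and the median was 35.1 in the control and 36.4 in the Hand2-null array. A genome build and further normalization are not given in the sources used here. Equal means rest on the premise that total RNA per cell is alike, and the subtraction of mismatch probes leaves dim signals with unsteady ratios.

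Of 45101 probe sets, 64 controls were left out and 34945 had 1 gene in the platform annotation. Each array's 60th percentile was its floor, lower values were set to it, and ratios were taken on a log2 scale. A fold with 1 signal under the floor is a lower bound. The floors differ by 0.07 in log2. Each gene was read from its brightest probe set, by the mean of both log2 signals. No test was made, since 1 array per genotype gives no replicate error, and the number of arrays limits the precision. The members were listed by gene name, not by a measured value, but they, the other lists and the rule for named genes were chosen with earlier results of these data known. Named were Hand2, every gene of the set, both signals for its 12 largest ratios, for ratios above 0 and for mixed signs, and up to 4 genes per other list, ranked by size of ratio. Mybl2, Cdkn1c, Cdkn2c, Cdkn2d and the genes whose signals lie under the floor were named outside this rule, after their values were seen. Promoter windows came from RefSeq (GRCm38.p6), matched by symbol. Alternatives were median centring, quantile and loess normalization, other floors, a pseudo-signal equal to the floor added to each signal in place of it, the mean over probe sets, and leaving out probe sets that can match several transcripts. The procedure was tested on simulated data, with differences of 2-fold or more, beyond any in the set, and with none. Recovery of differences as small as those of the set was not tested. Scripts ran in Python 3.11.15 with pandas 2.3.3, numpy 2.4.6 and statsmodels 0.14.6, and plots were drawn with matplotlib 3.10.9.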

Additional observations from a re-analysis of the deposited data

How the results depend on the processing

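No paired analysis was possible because each genotype had 1 array. The median log2 ratio of the set moved by no more than 0.1 under every alternative run, and the numbers lower and higher stayed within 1.5 times their reported values except as follows. Centring on the median left 7 genes higher in place of 4, and a floor at the 75th percentile left 24 lower in place of 40, of fewer genes measured. The count at least 1.5-fold lower, 2 as reported, was 1 with that floor, with a pseudo-signal, without probe sets that can match several transcripts (names ending in _x_at or _s_at) and among genes that exceed both floors. It was 3 without a floor or at the 50th percentile, where Ttk reached -0.67. It was 19 at 1.25-fold and 0 at 3-fold, and the count higher was 1 at 1.25-fold. The share of the set in the lowest 25% of measured genes was 65.9% as reported. It was 56.8% with a pseudo-signal and 43.75% with no floor, where 18193 genes count as measured. Under the other settings it ran from 60.7% to 67.5%. The setting with both floors exceeded and a common floor were added after seeing the data. Of 461 single gene ratios under alternatives, 452 stayed within 0.19 of the reported value and 9 did not, among them Plk1 at 0.01 with the floor at the 75th percentile, where its Hand2-null signal is set to that floor, and Kif22 at -0.07 by the mean over probe sets. Loess used a span of 0.3, and floors were also set at the 50th percentile and left out. Among the other lists, the stromal median turned from -0.03 to 0.15 by the mean over probe sets, with 6 lower and 7 higher. The median of the CDK inhibitors and p53 response was 0.29 by that mean and 0.41 with no floor, that of the mesothelial markers 1.42 at the 50th percentile and 1.39 without a floor, and that of the smooth muscle markers ran from 1.24 to 1.46. Signal over background limits the reading of 11 of the 44 genes, whose control signal was under 2 times the floor.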

Other observations

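Within the G1/S and DNA replication genes, the subgroups differed, beside 55.3% lower among all measured genes. Origin licensing genes had 17 of 19 lower with a median log2 ratio of -0.28, the same as the mitosis and G2/M genes. Among them were the MCM helicase genes Mcm3 at -0.42, Mcm6 at -0.35, Mcm2 at -0.28, Mcm7 and Mcm5 at -0.25 each and Mcm4 at -0.11. Other probe sets ran to -0.07 for Mcm3, -0.10 for Mcm6 and -0.39 for Mcm7. Replication fork genes had 15 of 20 lower with a median of -0.20, including Pcna, the sliding clamp, at 2418 and 2125 or -0.19. The cyclins, kinases and E2F factors of G1 had 7 of 15 lower with a median of 0.02. There the D-type cyclins Ccnd1, Ccnd2 and Ccnd3 were at 0.33, 0.13 and 0.16 and Cdk4 at -0.32, beside Cdk6 at 1.19. Ccne2, a cyclin of S phase entry, was at 96.1 and 63.0, or -0.51 and lower, as its second signal is under the floor. These subgroups and genes were picked out after their values were seen, and no difference between them was tested.

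Cks1b and Cks2, small subunits that bind CDK1 and CDK2, were at 1692 and 1219 and at 1058 and 760, ratios of -0.47 and -0.48, beside Cdk1 at -0.53. The second probe set of each gave a smaller difference, -0.23 for Cks1b and -0.26 for Cks2. Cks1b and Cks2 too were picked out after their values were seen.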
